A study of Mus musculus with 18 samples.

Results

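The nuclear-encoded genes of the mitochondrial respiratory chain were followed in CD4+ T cells of the Tg4 mouse model of tolerance. Genes were taken where the symbol began with Ndufa, Ndufb, Ndufc, Ndufs, Ndufv, Sdha to Sdhd, Uqcr, Cox4 to Cox8 or Atp5 and where the mean count over the 18 libraries was at least 10, and pseudogenes were left out. Of 37991 genes listed, 94 carried such a symbol and 84 passed the count minimum. The last genes inside the minimum were Atp5s with a mean count of 24.2 and Ndufaf2 with 24.3, and the first genes outside were Cox6b2 with 6.39 and Cox7a1 with 1.89. The 84 genes held 74 subunit genes, namely 36 of complex I, 4 of complex II, 8 of complex III, 11 of complex IV and 15 of complex V. The other 10 share only the symbol: the assembly factors Ndufaf1 to Ndufaf4 and Sdhaf1 and Sdhaf2, the supercomplex factor Cox7a2l, and Atp5s, Atp5sl and Cox4nb, which are not subunits. All 84 passed the filter on low counts.

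The respiratory chain of the inner mitochondrial membrane passes electrons from NADH (complex I) and succinate (complex II) through complex III to oxygen at complex IV. Complexes I, III and IV pump protons, and ATP synthase, called complex V, uses the gradient to make ATP. Complexes I, III, IV and V join subunits encoded in the nucleus with a few encoded in mitochondrial DNA, whereas complex II is encoded in the nucleus alone. Activated T cells are known for raising both glycolysis and mitochondrial activity as they prepare to divide.

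All mice were Tg4-H2u, carry a transgenic TCR for the N-terminal peptide of myelin basic protein, and were males and females aged 6 to 12 weeks. Tolerized mice (T) received 7 subcutaneous doses of the higher affinity 4Y peptide, rising to a maximum, and control mice with predominantly naive cells (N) received PBS vehicle on the same schedule. Cells were taken 2 h after a last injection of PBS (N0 and T0) or of 4Y peptide in vivo (NAg and TAg), or after 2 h of culture with the phorbol ester PMA and the calcium ionophore A23187, which bypass the receptor (NPI and TPI). Each of the 6 groups had 3 libraries of rRNA-depleted RNA from enriched splenic CD4+ T cells. Cells were enriched magnetically and measured in bulk, so fewer cells of a type and less RNA per cell cannot be told apart. PI cells were cultured and all other cells were taken directly, so culture and PI cannot be told apart in NPI:N0 and TPI:T0.

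Library totals ran from 10758571 to 24119489 counts, with the PI libraries deepest at 14895843 or more. T cell markers (Cd3d, Cd3e, Cd3g, Cd4, Lck and Trac) summed to between 1535 and 2824 CPM (counts scaled to library size) in every library, and all 6 were lower in NAg than in N0. All 13 neutrophil markers were higher in T0 than in N0 and in TAg than in NAg, and their sum was 165.9 to 279.8 CPM in T0 against 7.55 to 16.61 in N0, 185 to 325.6 in TAg against 11.95 to 31.08 in NAg, and 35.96 to 61.81 in TPI against 6.32 to 14.65 in NPI. The sum of the erythroid markers reached 189.5 CPM in 1 T0 library, and that of the macrophage markers reached 154 CPM in 1 NAg library against 41.38 and 47.04 in the others. The sum of the B cell markers ran from 25.45 CPM in N0 replicate 2 to 197 in T0 replicate 1. Cd8a and Cd8b1 summed to 15.39 to 19 CPM in N0 against 5.968 to 9.194 in T0. The sum was 12.48 to 14.39 in NPI against 3.844 to 5.155 in TPI, and it overlapped between NAg and TAg. At rest Cd8b1 passed as lower in T0 and Cd8a did not pass. Reads of 4 Y-linked genes numbered 18 or fewer in all N0 and NAg libraries, T0 replicate 3 and TAg replicates 1 and 2. They numbered 5111 or more in all others, every PI library among them, so sex and PI cannot be told apart in naive cells. The part of these differences in the results was not tested except where a value is given.

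Directions depend on the scaling of the libraries. The TMM factors used here were 1.22 to 1.38 in the N0 and T0 libraries, 0.916 to 1.06 in NAg and TAg, and 0.736 to 0.834 in NPI and TPI. Scaling by library totals instead, an alternative chosen after these factors were seen, shifted all genes by -0.40 (log2) in NAg:N0, -0.33 in TAg:T0, -0.58 in NPI:N0 and -0.80 in TPI:T0. Changes are therefore given with TMM and set beside the median of the 17240 genes tested. A change of scaling moves all genes nearly alike, so the place of a gene relative to that median hardly changes, by construction. The number of genes above the median was thus the same under both scalings for NAg:N0, TAg:T0 and NPI:N0, and 32 against 35 for TPI:T0. This is no evidence for either scaling. Normalized counts are raw counts brought to a common TMM-scaled library size.

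The promoters of 4 genes are shown because these genes carried the clearest patterns below. Ndufaf4 and Atp5g1 rose most with Ag among the genes above a mean normalized count of 50 in N0, Ndufv3 fell most, and Uqcrfs1 rose with both Ag and PI. Each sequence runs from 250 bases before to 50 bases after the RefSeq start on GRCm38.p6, 5′ to 3′ on the gene's strand. Capitals mark a match on either strand to the NRF1 motif (in Ndufaf4) or to the E-box CACGTG (in Atp5g1). Both motifs read the same on either strand.
Ndufaf4, chr4:24897833-24898132, plus strand: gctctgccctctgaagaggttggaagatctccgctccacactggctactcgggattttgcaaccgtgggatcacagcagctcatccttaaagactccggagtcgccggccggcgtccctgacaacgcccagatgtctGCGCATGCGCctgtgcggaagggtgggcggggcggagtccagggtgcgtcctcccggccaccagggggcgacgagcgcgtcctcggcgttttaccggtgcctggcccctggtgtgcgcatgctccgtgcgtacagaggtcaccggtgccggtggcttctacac
Atp5g1, chr11:96075582-96075881, minus strand: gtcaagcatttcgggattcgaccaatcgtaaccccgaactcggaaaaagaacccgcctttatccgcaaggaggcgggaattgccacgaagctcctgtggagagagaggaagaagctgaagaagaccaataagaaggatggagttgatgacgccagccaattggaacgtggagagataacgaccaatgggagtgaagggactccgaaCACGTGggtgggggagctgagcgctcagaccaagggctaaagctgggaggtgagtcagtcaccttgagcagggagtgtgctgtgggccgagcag
Ndufv3, chr17:31519865-31520164, plus strand: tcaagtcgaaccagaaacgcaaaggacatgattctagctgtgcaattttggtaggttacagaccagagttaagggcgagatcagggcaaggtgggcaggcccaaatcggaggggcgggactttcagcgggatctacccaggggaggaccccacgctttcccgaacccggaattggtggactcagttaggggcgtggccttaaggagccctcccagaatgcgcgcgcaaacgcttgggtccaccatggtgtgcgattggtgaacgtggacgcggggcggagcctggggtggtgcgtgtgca
Uqcrfs1, chr13:30545267-30545566, minus strand: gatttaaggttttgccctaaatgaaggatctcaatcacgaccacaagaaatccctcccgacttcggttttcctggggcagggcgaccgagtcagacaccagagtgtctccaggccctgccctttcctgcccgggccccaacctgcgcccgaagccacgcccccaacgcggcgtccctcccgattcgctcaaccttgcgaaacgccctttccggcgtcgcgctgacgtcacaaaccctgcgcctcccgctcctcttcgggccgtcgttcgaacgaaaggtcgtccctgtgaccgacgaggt

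Ndufaf4 held the NRF1 letters and Atp5g1 the E-box, and the other 2 held none of the 4 motifs searched. Promoters were at hand for 72 of the 84 genes, 78 promoters in all. Among these, 7.69% held the NRF1 letters against 0.971% of all 32851 promoters of the same length, 24.4% held the ETS letters CCGGAAG bound by GABP against 8.86%, 11.5% held the YY1 letters AAGATGGCG against 1.4%, and 11.5% held the E-box against 7.15%. These shares count promoters and not genes, and 6 of the genes had more than 1 promoter. Each of the 2 promoters of Atp5sl and of Ndufa7 held the E-box, and those of Atp5sl also held the YY1 letters. NRF1, GABP and YY1 are known regulators of nuclear genes for mitochondrial proteins. These are matches of letters and not shown binding sites.

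Levels per length were compared in reads per kilobase of exon, scaled to library size (RPKM). The length is that of all annotated exons of a gene merged, which can exceed the length of a transcript. The order of genes by RPKM depends on this choice. The median over the 84 genes was 15.99 RPKM in N0, 13.83 in T0, 19.56 in NAg, 21.84 in TAg, 13.1 in NPI and 11.43 in TPI. In N0 the genes ran from 1.45 RPKM ± 0.135 (SD, n = 3) for Ndufaf2 to 98.3 ± 3.55 for Cox4i1, the regulatory subunit of cytochrome c oxidase. Next to Cox4i1 stood Cox7a2l with 97.7 ± 6.34 RPKM, which did not differ beyond the spread, and then Atp5a1, the alpha subunit of ATP synthase, with 83.2 ± 3.76. The isoforms known from other tissues had few or no counts: Cox6b2 had a mean count of 6.39, and Cox4i2, Cox6a2, Cox7a1, Cox7b2, Cox8b, Cox8c and Ndufa4l2 had 1.89 or less, whereas the general forms Cox6a1, Cox6b1, Cox7a2, Cox7b, Cox8a and Ndufa4 had 22.3 to 63.6 RPKM in N0. Among the 3 genes for the c subunit that forms the rotating ring of ATP synthase, Atp5g2 was listed at 62.6 RPKM in N0, Atp5g3 at 26.7 and Atp5g1 at 3.16. The merged exons of Atp5g3 span 2181 bases but its longest transcript 723, while Atp5g2 has 647 for each. Mean normalized counts in N0 were 795.6 for Atp5g3 and 553.5 for Atp5g2, so their order per length is uncertain. Atp5g2 also has 3 near-identical copies in the genome. Of the 84 genes, 21 have such a copy (at least 95% identity over at least 50% of the transcript), so the counting of their reads is uncertain.

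The first comparison asked how naive cells answered Ag in vivo. Of the 84 genes, 45 rose and 20 fell in NAg compared with N0 (edgeR quasi-likelihood test, adjusted p under 0.05), where 32.1% of all tested genes rose and 33.4% fell. The median change was 0.25 (log2) against 0 for all genes, and 58 of 84 genes lay above the median of all genes. The rise was spread unevenly over the complexes. Complex III had 7 of 8 subunits higher and none lower, complex IV 10 of 11 and none lower, and complex V 9 of 15 higher and 1 lower. Complex I, the largest, had 11 of 36 subunits higher and 15 lower with a median change of 0.01. In complex II the catalytic subunit Sdha fell, while Sdhb, Sdhc and Sdhd rose with TMM but had changes of -0.13, -0.18 and 0.07 with library totals, none of which passed. By a stricter rule, a change of at least 2-fold with an average normalized count above 50 in a group compared, 12 genes rose and 4 fell, where 14.2% and 16.2% of all genes did. With library totals, 19 genes were higher and 36 lower, where 22.8% and 43.1% of all genes were, the median change was -0.16 against -0.41 for all genes, and 39 of the 65 calls remained. Complex I then had 4 higher and 24 lower, complex III 4 and 0, complex IV 4 and 1, and complex V 5 and 5.

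**Figure D1:**
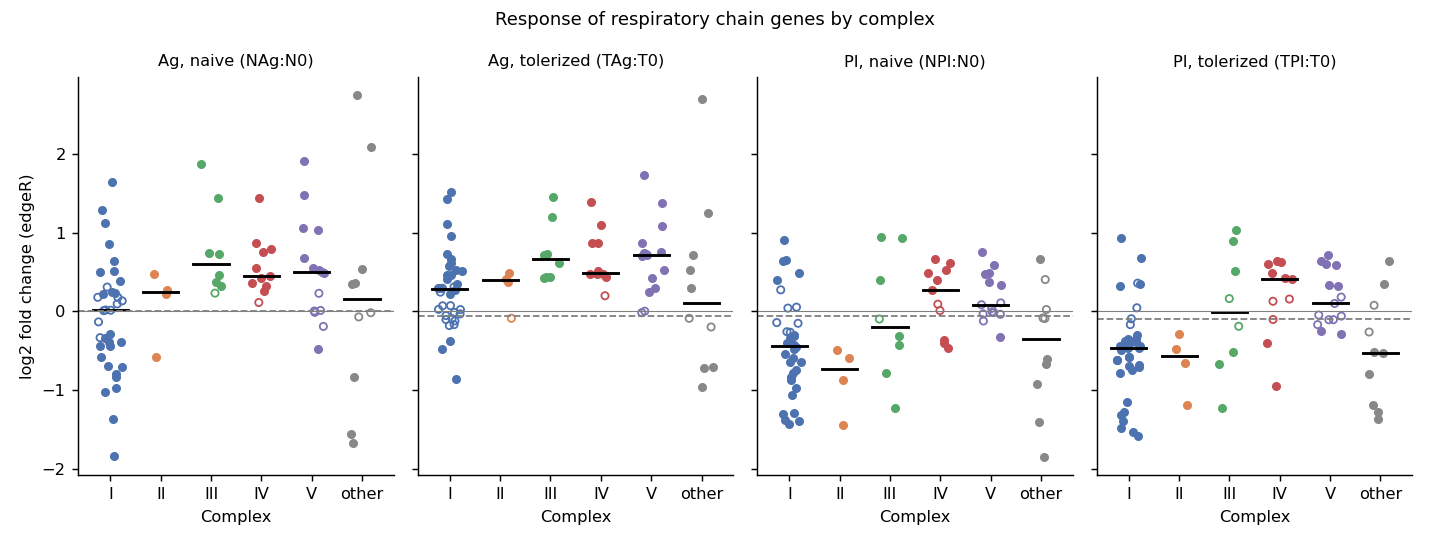
Log2 fold change of each of the 84 genes (points) by complex for the response to Ag and to PI in naive and tolerized cells, with TMM scaling. Filled points passed the test, black bars are medians, the dashed line is the median of all tested genes, and "other" holds the 10 genes that are not subunits. Complex III and IV points sit above 0 with Ag, and most complex I points sit below 0 with PI.

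The largest rise was in Ndufaf4, a factor for the assembly of complex I. Its normalized counts were 211, 164.9 and 201.3 in N0 and 1170.9, 1345.1 and 1367 in NAg, and every NAg library was far above every N0 library. The change was 2.75 ± 0.12 (log2, SE; adjusted p = 4.58e-16 by edgeR). Ndufaf2, a second assembly factor, rose by 2.09 ± 0.27, but from only 12.5 to 14.9 normalized counts in N0 to 44.3 to 69.3 in NAg. Atp5g1 had 210, 198.4 and 228.1 normalized counts in N0 and 749.1, 810.6 and 830.3 in NAg, a change of 1.91 ± 0.10. Its paralog Atp5g3 rose by 1.06 ± 0.08, while Atp5g2 had a change of 0.01 and did not pass the test, but was lower with library totals (-0.39). The c subunit is the same mature protein from all 3 genes.

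Other rises of at least 2-fold fell across the chain. Uqcrq, a small subunit of complex III (chr11:53241424-53244333 on NCBIM37), had 275.4, 298.6 and 311.4 normalized counts in N0 and 1016.3, 1105.5 and 1131.7 in NAg, a change of 1.88 ± 0.10. Uqcrfs1, the Rieske iron-sulfur subunit that passes electrons in complex III, went from 453.7, 457.3 and 467.1 to 1167.4, 1305.2 and 1271.4 normalized counts. Atp5b, the catalytic beta subunit of ATP synthase, had the highest counts of these genes, with 3454.4 to 4135.6 in N0 and 9661.2 to 11252 in NAg. The groups did not overlap for any of the 3. Cox5a of complex IV (1.44), Ndufa12 (1.65), Ndufa5 (1.28) and Ndufb6 (1.12) of complex I and Atp5d of ATP synthase (1.04) rose as well, all log2 changes. These 12 genes, Ndufaf4, Ndufaf2, Atp5g1 and Atp5g3 included, also passed as higher with library totals. Exons of Cox5a overlap an antisense gene over 267 of 690 bases, and those of Ndufb6 another over 257 of 659. The strand setting is not given, so the counting of their reads is uncertain.

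**Figure D2:**
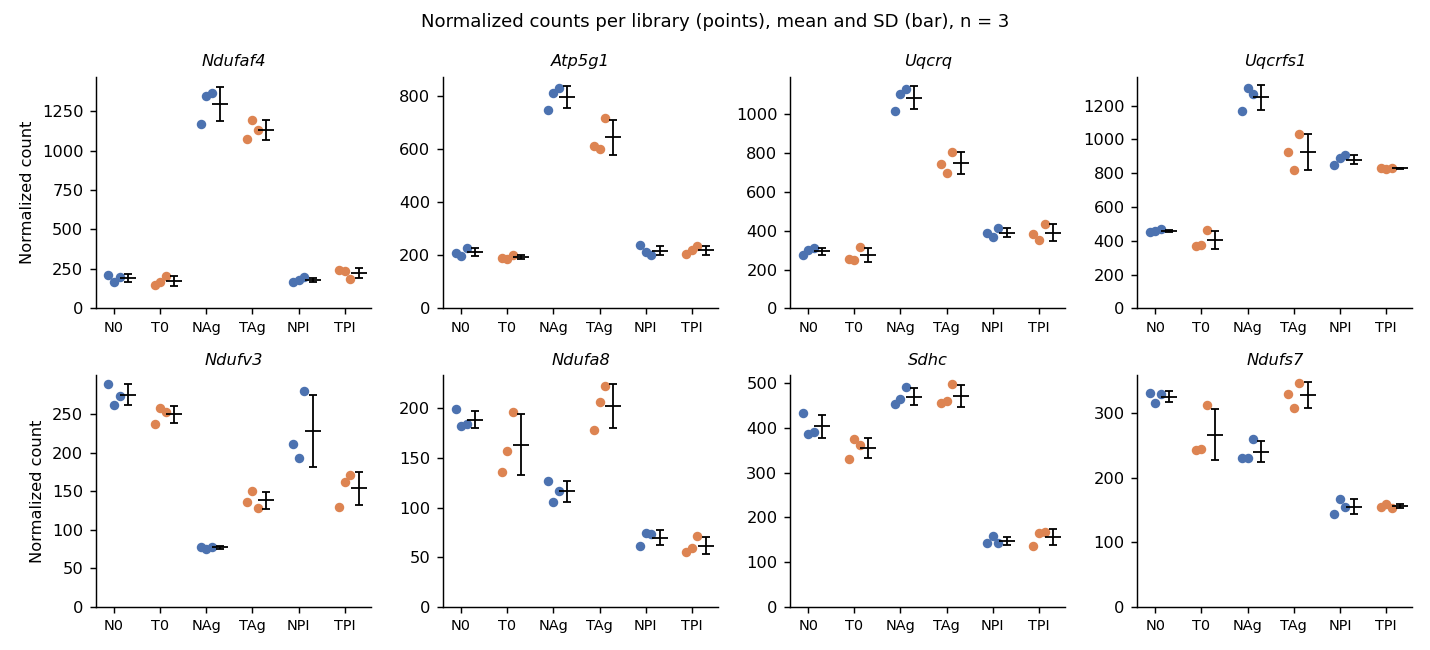
Normalized counts of 8 genes in each of the 18 libraries (points; blue naive, orange tolerized), with mean and SD beside each group of 3. Ndufaf4, Atp5g1 and Uqcrq are highest in NAg and TAg, Uqcrfs1 is high with Ag and PI, Ndufv3 is lowest in NAg, and Sdhc, Ndufa8 and Ndufs7 are lowest with PI.

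Among the falling genes, Ndufv3, an accessory subunit of the NADH-oxidizing module of complex I, stood out. It had 289.2, 262 and 273.7 normalized counts in N0 and 77.9, 75.2 and 78.1 in NAg, a change of -1.83 ± 0.14 (adjusted p = 2.91e-11 by edgeR). The assembly factor Ndufaf3 fell by 1.67 ± 0.22 on the log2 scale, Atp5s by 1.55 ± 0.27, Ndufb10 by 1.37 ± 0.14 and Ndufb3 by 1.02 ± 0.19. Atp5s, the factor B of ATP synthase, had under 51 normalized counts in every library and Ndufb3 has a near-identical copy elsewhere. Among the core subunits of complex I, which include those that bind its flavin and iron-sulfur clusters, Ndufs8, Ndufs1 and Ndufv2 rose by 0.65, 0.24 and 0.22, and Ndufs7 and Ndufv1 fell by 0.44 and 0.38. With library totals Ndufs1 was lower (-0.16), Ndufv2 had a change of -0.18 that did not pass, and Ndufs8 one of 0.25 that did not pass.

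In tolerized cells Ag gave a rise in 57 genes and a fall in 6 (TAg compared with T0), where 29.9% of all tested genes rose and 29.8% fell. The median change was 0.44 against -0.05 for all genes, and 70 of 84 lay above that median. Complex III had 8 of 8 subunits higher, complex IV 10 of 11, complex V 13 of 15, and complex I 18 of 36 with 3 lower. Under the 2-fold rule 11 genes rose and 0 fell, where 12.1% and 11.3% of all genes did. With library totals 26 genes were higher and 22 lower, where 21.8% and 40.8% of all genes were, and 32 of the 63 calls remained, with 6 complex I subunits higher and 14 lower, 5 and 0 of complex III, 4 and 0 of complex IV and 8 and 2 of complex V. The genes with the largest rises were again Ndufaf4 (2.70 ± 0.12), Atp5g1 (1.74 ± 0.10) and Ndufa12 (1.52 ± 0.13), followed by Uqcrq (1.46), Ndufb6 (1.43), Cox5a (1.39), Atp5b (1.38), Ndufaf2 (1.25, under 36 normalized counts), Uqcrfs1 (1.2), Ndufa5 (1.11), Cox7b (1.10) and Atp5g3 (1.08). Ndufaf4 had 149.5, 167.8 and 207.2 normalized counts in T0 and 1070.1, 1193.4 and 1130.1 in TAg, so the groups were well apart. The falls were in Atp5s (-0.96), Ndufv3 (-0.86), Cox7a2l (-0.72), Ndufaf3 (-0.70), Ndufb10 (-0.47) and Ndufb11 (-0.38).

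NAg:N0 and TAg:T0 share no library. Across the 84 genes their log2 changes had a Pearson r of 0.94, which describes genes and not replicates. Of the 84 genes, 44 rose in both states and 6 fell in both, where 26.1% and 25.7% of all tested genes did, and Ndufs7 fell in naive and rose in tolerized cells.

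The difference between the responses to Ag was then tested as an interaction, TAg:T0 against NAg:N0. The response was higher in tolerized cells for 19 of the 84 genes, where 14.6% of all genes tested were, and lower for 1, where 7.09% were. Of the 19 genes, 14 were subunits of complex I, among them the core subunits Ndufs3, Ndufs7, Ndufv1 and Ndufv2, 1 was a subunit of complex II (Sdha), 2 were of complex V (Atp5c1 and Atp5g2) and 2 were assembly factors. No subunit of complex IV passed (0 of 11), and 1 of complex III did, in the other direction. Of the same 19 genes, 15 had fallen with Ag in naive cells, and 10 of these 15 did not pass the test in tolerized cells. These comparisons share libraries with the interaction, so the counts are no separate evidence. At 2-fold or more, 1 gene was higher and 0 lower, where 3.05% and 2.23% of all genes were. With library totals, 24 genes passed higher and 0 lower, where 18.9% and 5.93% of all genes did, and 19 of the 20 calls remained.

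**Figure D3:**
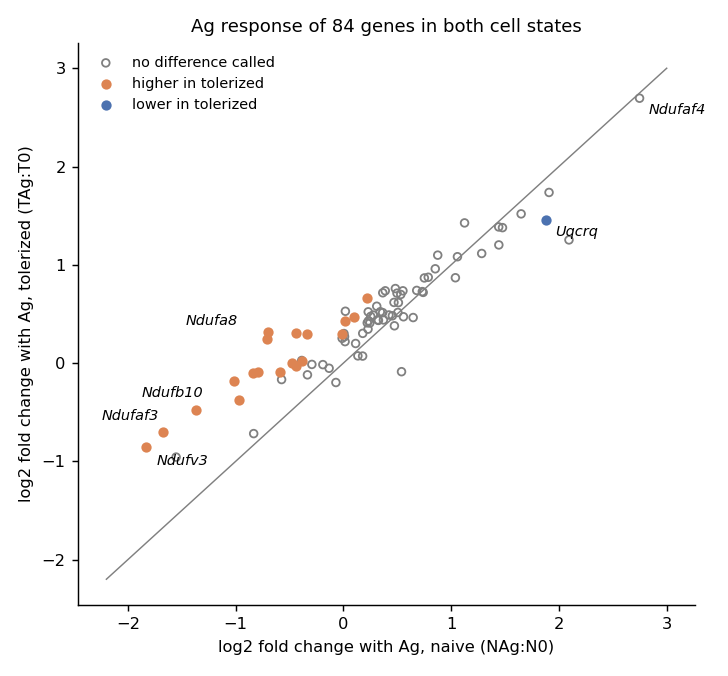
Log2 fold change with Ag in tolerized cells (TAg:T0) against that in naive cells (NAg:N0) for the 84 genes (points), with the line of equal change. Orange points had a higher and the blue point a lower response in tolerized cells by the interaction test, and the orange points lie mostly where naive cells had a fall.

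Ndufa8, an accessory subunit of complex I (chr2:35891846-35904926 on NCBIM37), showed the largest such difference. It had 199.1, 182.7 and 184.4 normalized counts in N0 and 127, 105.7 and 116.6 in NAg, against 136.2, 157.2 and 196.6 in T0 and 178.3, 206.3 and 222.3 in TAg. The naive groups were apart and the tolerized groups overlapped. The responses were -0.70 and 0.31, and their difference was 1.01 ± 0.20 (log2, SE; adjusted p = 0.000806 by edgeR). Ndufv3 fell in both states, to 135.4, 150.2 and 128.1 normalized counts in TAg, and the fall was smaller in tolerized cells by 0.98 ± 0.20. The core subunit Ndufs7 fell with Ag in naive cells (331.8, 316.3 and 329.2 to 231.3, 230.3 and 259.6 normalized counts) and rose in tolerized cells (243.2, 244.7 and 312.7 to 330.3, 307.6 and 347.3, which overlap), a difference of 0.74 between responses, although with library totals its change in tolerized cells was -0.02 and did not pass. Ndufaf3 also fell in both states, less so in tolerized cells by 0.97 ± 0.30, a call lost without T0 replicate 2 (0.91), NAg replicate 1 (0.80) or TAg replicate 3 (0.86). Sdha, the flavoprotein of succinate dehydrogenase, fell by 0.58 ± 0.06 in naive cells and had a change of -0.09 ± 0.06 in tolerized cells, while with library totals it fell in both, by 0.99 and 0.42. Uqcrq was the 1 gene that passed with a lower response in tolerized cells, by 0.42 ± 0.14 (adjusted p = 0.0323 by edgeR). That call was lost with library totals and without N0 replicate 1 or 2, T0 replicate 3, NAg replicate 2 or 3, or TAg replicate 1 or 2, with differences of -0.42 to -0.29. Without T0 replicate 2 the number higher fell from 19 to 12. With erythroid and myeloid marker levels as covariates it was 12 as well, where 10.9% of all genes were higher.

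Compared directly after Ag, 15 genes were higher and 8 lower in TAg than in NAg, where 20.9% and 18.5% of all tested genes were. Nuclear-encoded complex I subunits accounted for 11 of the 15 with none lower, and their median difference was 0.20 against 0.01 for all genes. The mitochondrially encoded subunits, those of complex I among them, went the other way, as given below. Ndufv3 (0.84 ± 0.15), Ndufb10 (0.83 ± 0.15) and Ndufa8 (0.80 ± 0.15) were highest among those that passed. Ndufaf2 (-0.75 ± 0.24), Uqcrq (-0.53 ± 0.09) and Sdhaf1 (-0.50 ± 0.16) were lowest among them, the last an assembly factor of complex II whose exons overlap an antisense gene over 636 bases. The calls of Ndufaf2 (without NAg replicate 2 or TAg replicate 1) and Sdhaf1 (without NAg replicate 1 or TAg replicate 2) were lost with values of -0.60, -0.71, -0.32 and -0.37, and both were lost with library totals. Uqcrfs1 (-0.43), Atp5d (-0.31), Atp5g1 (-0.30), Atp5b (-0.26) and Cox7a2l (-0.24) made up the remaining lower genes, and the number lower was 5 without TAg replicate 2. Of these remaining genes only Uqcrfs1 still passed with library totals (-0.25). With the erythroid and myeloid marker levels as covariates 0 genes were higher and 2 lower, Ndufa8 then differed by 0.07, and over all genes the calls went from 3609 higher and 3185 lower to 382 and 469. The myeloid covariate holds the neutrophil markers, whose sums did not overlap between TAg and NAg. That fit therefore cannot tell marker level and cell state well apart, and no conclusion is drawn from the lost calls. By the 2-fold rule 0 genes differed, where 3.61% of all genes were higher and 2.05% lower. With library totals, 40 genes were higher and 2 lower, where 30.8% and 10.3% of all genes were, and 17 of the 23 calls remained.

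At rest few of these genes passed the test between the cell states. None was higher and 9 were lower in T0 than in N0, where 8.42% and 12% of all tested genes were, and the median difference was -0.13 against -0.08 for all genes. By unadjusted p under 0.05 in edgeR 1 gene was higher and 16 lower, and DESeq2 called 0 higher. Under the 2-fold rule 0 genes differed, where 2.61% of all genes were higher and 0.644% lower. Ndufb2 (-0.61 ± 0.13, adjusted p = 0.0014 by edgeR), Cox7a2l (-0.36 ± 0.09) and Ndufs3 (-0.28 ± 0.08) were lowest among those that passed, while Ndufc1 (-0.38), Ndufaf3 (-0.36) and Ndufs7 (-0.29) had values below that of Ndufs3 and did not pass. Ndufb2 had 132.7, 143 and 126.9 normalized counts in N0 and 95.5, 85.7 and 81.5 in T0, which did not overlap, but its exons overlap those of Adck2, Braf and a further gene. The other 6 were Ndufb5, Cox4nb, Cox7a2, Ndufa10, Ndufs1 and Sdha, all between -0.28 and -0.20. The count rested on single libraries and on the model. It was 2 without T0 replicate 1, 4 without T0 replicate 2 or N0 replicate 2, and 17 without T0 replicate 3. That library was the only one of T0 with few Y-linked reads, as in all N0 libraries, so without it sex and cell state cannot be told apart. The count was 1 with a term for sex, 1 with library totals and 0 with the marker covariates. Of all genes 5.29%, 5.36% and 0.0522% were lower in these fits. The sums of the neutrophil markers among the covariates did not overlap between T0 and N0. The last fit therefore cannot tell marker level and cell state well apart. Ndufs3 lost its call without N0 replicate 2 (-0.26), T0 replicate 1 (-0.25) or T0 replicate 2 (-0.25).

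PI gave another pattern. In naive cells 21 genes rose and 41 fell (NPI compared with N0), where 28.6% and 32.7% of all tested genes did, and the median change was -0.26 against -0.06 for all genes. Complex I had 5 subunits higher and 24 of 36 lower, and all 4 subunits of complex II fell. Complex IV had 6 of 11 higher and 3 lower, and complex V 6 of 15 higher and 1 lower, which with library totals became 0 and 6 for complex IV and 0 and 11 for complex V. Relative to the median of all genes, the median subunit of complex I stood at -0.38, of complex II at -0.67, of complex III at -0.14, of complex IV at 0.33 and of complex V at 0.14. With library totals these became -0.37, -0.66, -0.14, 0.34 and 0.15, nearly the same by construction. At 2-fold or more, 0 genes rose and 9 fell, where 10.1% and 10.3% of all genes did. With library totals, 2 genes were higher and 65 lower, where 15.6% and 52.8% of all genes were, and 11 of the 62 called genes changed sign, Atp5a1, Atp5b and Cox8a among them.

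The largest fall in naive cells with PI was in the assembly factor Ndufaf1, from 127.8, 124.2 and 138.8 to 36.4, 46.2 and 27.2 normalized counts (-1.85 ± 0.17, adjusted p = 1.39e-09 by edgeR). Sdhc, a membrane anchor of complex II (chr1:173057296-173080734 on NCBIM37), fell from 432.9, 385.2 and 391.7 to 142.5, 158.3 and 142.6 normalized counts (-1.45 ± 0.10). The groups were far apart for both. Ndufa8 fell by 1.43, Ndufs7 by 1.07, and the complex I accessory subunits Ndufc2, Ndufs5, Ndufa11 and Ndufs6 by 1.40, 1.38, 1.31 and 1.30 on the log2 scale. Uqcr11, a small subunit of complex III, fell by 1.23 ± 0.21 and Atp5s by 1.41 ± 0.26. Reads of Ndufs5, Ndufs6 and Uqcr11 can also come from near-identical copies.

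In tolerized cells PI gave 21 higher and 45 lower genes (TPI compared with T0), where 32% and 36.3% of all tested genes were, with 28 of 36 complex I subunits and 4 of 4 complex II subunits lower. The largest falls were in Ndufb3 (-1.58), Ndufs5 (-1.53), Ndufc2 (-1.48), Ndufa8 (-1.39), Atp5s (-1.37), Ndufa9 (-1.31), Ndufaf1 (-1.28) and Ndufs6 (-1.28), followed by Uqcr11 (-1.22), Sdhc (-1.19), Ndufaf3 (-1.18) and Ndufa11 (-1.16). Ndufa9, an accessory subunit of complex I, had 424.6, 414.2 and 472.8 normalized counts in T0 and 180.2, 183.3 and 165.5 in TPI. With the marker covariates 10 genes were higher and 11 lower, where 16% and 12.4% of all genes were, so calls became fewer over all genes as well. Ndufa8 then had a change of -0.34 and Ndufs6 of -0.36, and neither passed. By the 2-fold rule 1 gene rose and 11 fell, where 13.3% and 13.7% of all genes did. With library totals 1 gene was higher and 72 lower, where 15.5% and 59.7% of all genes were, and 18 of the 66 called genes changed sign, 10 of them passing in the opposite direction. NPI:N0 and TPI:T0 share no library, and 20 genes rose in both and 36 fell in both, where 24.5% and 27.6% of all tested genes did, and 0 were called in opposite directions, as 0.992% of all genes were.

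Uqcrfs1 and Uqcrh of complex III rose with PI in both states. Uqcrfs1 had 848.8, 888.5 and 904.9 normalized counts in NPI and 831.3, 824.3 and 830.5 in TPI, all above the 368 to 467.1 of the resting libraries, a change of 0.94 ± 0.09 and 1.04 ± 0.09, which stayed past the threshold at 0.36 and 0.25 with library totals. Uqcrh, the hinge protein, rose by 0.94 ± 0.10 and 0.89 ± 0.10, but has a near-identical copy, and with library totals its change in tolerized cells was 0.10 and did not pass. Ndufa5 rose by 0.90 ± 0.20 in naive cells and Ndufb2 by 0.94 ± 0.13 in tolerized cells, neither of which passed with library totals.

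The values of several genes with Ag and with PI are set side by side, since these comparisons share the N0 libraries and Ag against PI was not tested. In naive cells Sdhc had changes of 0.22 with Ag and -1.45 with PI, Ndufa12 of 1.65 and -0.43, Ndufaf4 of 2.75 and -0.09, and Atp5g1 of 1.91 and 0.04, and with library totals those of Sdhc were -0.18 and -2.03, of Ndufa12 1.24 and -1.01, of Ndufaf4 2.34 and -0.67 and of Atp5g1 1.5 and -0.54, of which that of Sdhc with Ag did not pass. Cox7a2l, a factor for supercomplexes of complexes III and IV, had changes of -0.83 for Ag and 0.67 for PI, from 1436.3 to 1634.3 normalized counts in N0 to 756.6 to 1033.1 in NAg and 2348.8 to 2510.9 in NPI. With library totals its change with PI was 0.09 in naive and -0.16 in tolerized cells and did not pass. It has a near-identical copy, so its level is uncertain.

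After PI, 5 genes were higher and 24 lower in TPI than in NPI, where 18.2% and 19.7% of all tested genes were. Of the 24, 12 were subunits of complex I. Ndufb3 (-0.98 ± 0.20), Ndufb10 (-0.68 ± 0.13) and Ndufa5 (-0.63 ± 0.19) were lowest among those that passed, and Ndufaf1 (0.51 ± 0.18), Uqcrc1 (0.50 ± 0.08) and Sdhb (0.39 ± 0.08) highest. Uqcrc1, a core protein of complex III, had 755.2, 726.8 and 741.9 normalized counts in NPI and 1032.5, 1018.5 and 1085.3 in TPI without overlap. Sdhb, the iron-sulfur subunit of complex II, had 331.8, 277.1 and 297.9 in NPI and 395.1, 373.2 and 414.5 in TPI, also without overlap. Under the 2-fold rule 0 genes differed, where 3.38% of all genes were higher and 2.22% lower. In the interaction TPI:T0 against NPI:N0, 3 genes were higher (12.7% of all genes) and 3 lower (7.52%), the median being 0.002. Uqcrc1 (0.59 ± 0.11), Sdhb (0.58 ± 0.12) and Ndufab1 (0.55 ± 0.14) were higher, and Ndufb10 (-0.62 ± 0.18), Atp5sl (-0.56 ± 0.17) and Ndufa4 (-0.49 ± 0.15) lower. At 2-fold or more, 0 genes passed, where 1.75% of all genes were higher and 1.47% lower. The number lower was 25 with library totals, where 18.7% of all genes were lower, and 0 with the marker covariates, where 1.52% were. Numbers this small moved with single libraries.

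The mitochondrially encoded subunits were followed beside the nuclear ones. Of 13 such genes 12 were tested. All 12 rose with PI, by a median of 2.67 in naive and 1.65 in tolerized cells, and the share of the library they held was 0.82% to 0.86% in N0, 2.11% to 2.55% in NPI and 1.24% to 1.32% in TPI. The 84 nuclear genes held 0.339% to 0.372% in N0 and 0.248% to 0.252% in NPI, with no overlap, a lower share. With TMM scaling, however, their sum was 2789.5 to 2991.5 CPM in N0 and 3020.3 to 3067.1 in NPI, higher and also without overlap, so the direction of the sum depends on the scaling. All 12 also passed lower in TPI than in NPI, by a median of -0.90, and in the interaction, with a median of -0.89, and all 12 passed in both under either scaling. With Ag all 12 rose in naive cells by a median of 0.54 and 5 rose in tolerized cells, but their share of the library overlapped between N0 and NAg (0.78% to 0.89%) and with library totals 2 were higher in naive cells and 3 lower in tolerized cells. After Ag 0 of the 12 were higher and 9 lower in TAg than in NAg, where 18.5% of all genes were lower, with a median of -0.36. In the Ag interaction 0 were higher and 4 lower, where 7.09% of all genes were lower. With library totals the numbers lower were 3 and 1, where 10.3% and 5.93% of all genes were. These genes are transcribed together from mitochondrial DNA and are not 12 separate observations.

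**Figure D4:**
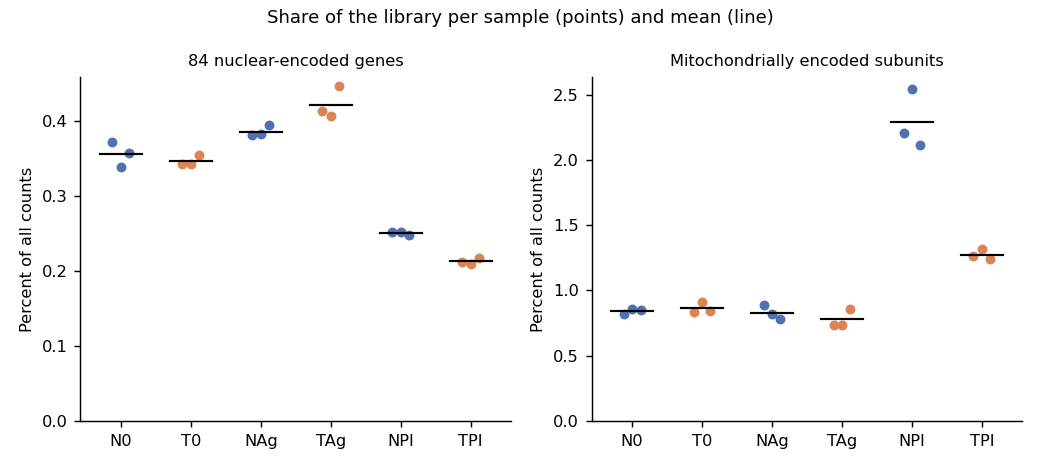
Share of all counts in each library (points, percent) held by the 84 nuclear genes and by the mitochondrially encoded subunits, with the group mean as a line, for the 6 groups of 3. The nuclear share is lowest with PI while the mitochondrial share is highest in NPI and next in TPI.

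Other genes of the pathway were taken from 3 lists, whose counts stand beside the shares of all genes called in each comparison: 32.1% higher and 33.4% lower in NAg:N0, 29.9% and 29.8% in TAg:T0, 28.6% and 32.7% in NPI:N0, and 32% and 36.3% in TPI:T0. Of 18 genes for electron carriers and coenzyme Q synthesis, 9 rose and 6 fell in NAg:N0 and 3 rose and 9 fell in NPI:N0. Cycs, which encodes cytochrome c, rose by 1.96 with Ag and 0.77 with PI in naive cells. Of 28 tested assembly factors outside the symbols above, 12 rose and 12 fell in NAg:N0, 14 rose and 5 fell in TAg:T0, 4 rose and 17 fell in NPI:N0, and 4 rose and 20 fell in TPI:T0. Of 21 tested regulators of mitochondrial biogenesis, 11 rose and 7 fell in NAg:N0 and 8 rose and 8 fell in NPI:N0. The regulators whose motifs were searched are named for that reason, after their values were seen: in naive cells Nrf1 had changes of 0.60 with Ag and 0.07 with PI, Gabpa of GABP 0.58 and -0.13, Yy1 0.41 and 0.26, and Myc, whose protein binds E-boxes, 5.34 and 4.58. Those of Nrf1 and Gabpa with PI did not pass. Gabpa is only 1 chain of GABP. Gabpb1, for another chain, had mean normalized counts of 688.3 in N0, 2282 in NAg and 3840 in NPI, while Gabpb2 went the other way with 3998, 2520 and 1905. At rest 8 of the 21 regulators were lower in T0 and 0 higher, where 12% of all genes were lower and 8.42% higher. That count is from the main fit alone. Over all genes the share lower at rest was 5.29% with a sex term, 5.36% with library totals and 0.0522% with the marker covariates. Library totals shifted all genes by 0.11 in T0:N0. All changes and counts for these lists are with TMM. The shifts with library totals, -0.40 in NAg:N0 and -0.58 in NPI:N0, are as large as some of these changes, so their directions depend on the scaling as well.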

How the data were processed

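RNA-seq was done on 18 libraries (6 groups of 3) of rRNA-depleted RNA from splenic CD4+ T cells. The authors aligned reads to mm9 with TopHat2 2.1.1 and counted them per Ensembl gene with HTSeq 0.9.1, and the deposited values are raw counts per gene, not normalized. The strand setting and the treatment of overlapping genes are not given in the sources used here. The authors describe the 3 libraries of a group as biological replicates but do not say whether each came from a separate mouse. The p-values therefore measure the spread between these samples only. A line without a gene name held no gene and was left out. Symbols were taken from GENCODE vM1 (NCBIM37, the same build as mm9), and promoters from RefSeq on GRCm38.p6.

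The test was run on the 17240 genes whose normalized counts averaged 3 or more in any 1 group. Counts were normalized by TMM and fitted in 1 model of 6 groups with 12 residual degrees of freedom, and 9 contrasts were tested with edgeR 4.0.16 (R 4.3.3), robust quasi-likelihood F test, Benjamini-Hochberg adjusted over all tested genes, with a call at an adjusted p under 0.05. RPKM were computed from TMM-scaled counts and merged exon lengths. On simulated data with 200 of 17240 genes changed 2-fold, 174 were recovered in TAg:NAg with 12 false calls, and 99 in the Ag interaction. The simulation gave every gene the same dispersion and changed only TAg. It checks the code and does not measure recovery or false calls for the smaller differences reported here. Near-identical copies were sought with minimap2.

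Alternatives were DESeq2 1.42.0 and its size factors, no low-count filter, only the groups compared, a replicate block, erythroid and myeloid marker covariates, a sex term, a 2-fold rule with a count above 50, each library left out and, added after seeing the data, library totals. Named genes were the 3 highest and 3 lowest called genes without overlap in each contrast, those called at 2-fold or more with a count above 50, complex II, isoform sets and the genes that are no subunit. The members and lists were chosen with earlier results of these data known. Results for 1 gene are not reported here by name. Library totals of 10758571 to 24119489 counts set the precision, and counting error is only part of the spread between libraries.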

Additional observations from a re-analysis of the deposited data

Results flagged for a closer look

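These 10 results differed between naive and tolerized cells by the interaction test (edgeR, adjusted p under 0.05), each the response of tolerized minus that of naive cells on the log2 scale. With Ag these were Ndufa8 (1.01 ± 0.20, SE, adjusted p = 0.000806), Ndufv3 (0.98 ± 0.20, adjusted p = 0.000719), Ndufaf3 (0.97 ± 0.30, adjusted p = 0.0232) and Uqcrq (-0.42 ± 0.14, adjusted p = 0.0323). With PI these were Uqcrc1 (0.59 ± 0.11, adjusted p = 0.000388), Sdhb (0.58 ± 0.12, adjusted p = 0.000742), Ndufab1 (0.55 ± 0.14, adjusted p = 0.00688), Ndufb10 (-0.62 ± 0.18, adjusted p = 0.0174), Atp5sl (-0.56 ± 0.17, adjusted p = 0.024) and Ndufa4 (-0.49 ± 0.15, adjusted p = 0.0194). Atp5sl lost its call without N0, T0 or NPI replicate 1 or TPI replicate 2 or 3, Ndufa4 without N0 replicate 1 or T0 replicate 3, and Ndufb10 without N0 replicate 2, T0 replicate 1 or TPI replicate 2.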

How the results depend on the processing

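Numbers of genes are given as higher and lower. With library totals they were 1 and 1 in T0:N0, 40 and 2 in TAg:NAg, 2 and 39 in TPI:NPI, 19 and 36 in NAg:N0, 26 and 22 in TAg:T0, 2 and 65 in NPI:N0, 1 and 72 in TPI:T0, 24 and 0 in the Ag interaction and 2 and 25 in the PI interaction, and the median change in NAg:N0 turned from 0.25 to -0.16, by the construction of the scaling. With the marker covariates they were 0 and 0 in T0:N0, 0 and 2 in TAg:NAg, 3 and 14 in TPI:NPI, 10 and 11 in TPI:T0, 12 and 0 in the Ag interaction and 1 and 0 in the PI interaction, and 26 of the named values lost their call. The cause was not tested. The sums of the neutrophil markers, part of these covariates, did not overlap between tolerized and naive libraries, nor between T0 and TPI. Marker level and the groups compared thus cannot be well told apart in this fit. The number lower in T0:N0 was 4 without a low-count filter, 1 with a sex term and 2 with only the groups compared. Of all genes 7.68%, 5.29% and 5.98% were lower in these fits. The number lower in the Ag interaction was 2 with DESeq2, with its size factors, without a filter and with the replicate block. The number lower in the PI interaction was 8 with only the groups compared and 6 with the replicate block, and the block moved no other count by over 1.5 times. DESeq2, its size factors, no filter and the block left each of the 82 named values with its direction and call. Same-numbered libraries did not deviate together: 2 of 18 were closest to their own number, so the numbers do not pair the samples. By the 2-fold rule, the numbers were 0 and 0 in T0:N0, TAg:NAg, TPI:NPI and the PI interaction, 12 and 4 in NAg:N0, 11 and 0 in TAg:T0, 0 and 9 in NPI:N0, 1 and 11 in TPI:T0 and 1 and 0 in the Ag interaction.

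With each library left out in turn, the numbers higher and lower ranged over 0 to 1 and 2 to 17 in T0:N0, 10 to 17 and 5 to 10 in TAg:NAg, 3 to 5 and 18 to 21 in TPI:NPI, 32 to 44 and 18 to 22 in NAg:N0, 50 to 60 and 6 to 7 in TAg:T0, 19 to 22 and 37 to 44 in NPI:N0, 17 to 22 and 42 to 47 in TPI:T0, 12 to 22 and 0 to 2 in the Ag interaction and 3 to 6 and 1 to 6 in the PI interaction. In the PI interaction the number higher was 5 without N0 replicate 2 and 6 without T0 replicate 3, and the number lower 1 without N0 replicate 1 or TPI replicate 2 and 6 without NPI replicate 2. In TPI:NPI the number higher was 3 without NPI replicate 3, and Ndufaf1 lost its call without NPI replicate 1 (0.52) or 3 (0.32) or TPI replicate 2 (0.47), and Ndufa5 without TPI replicate 2 (-0.46). The depth of these libraries leaves genes such as Ndufaf2 and Atp5s with few counts and wide errors.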

Other observations

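Other values describe the lists beside the respiratory genes in tolerized cells. Of 18 genes for electron carriers and coenzyme Q synthesis, 10 rose and 5 fell in TAg:T0 and 5 rose and 9 fell in TPI:T0. Cycs rose by 1.75 with Ag and by 1.15 with PI, and Cyc1, the cytochrome c1 subunit of complex III whose symbol lies outside the rule, rose by 1.06 with Ag and had a change of -0.15 with PI. Of 21 regulators of mitochondrial biogenesis, 11 rose and 6 fell in TAg:T0 and 9 rose and 9 fell in TPI:T0. These values are with TMM, and library totals shifted all genes by -0.33 in TAg:T0 and -0.80 in TPI:T0. Current RefSeq symbols would have given 89 genes in place of 84, of which 81 are shared.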
